A study of Mus musculus with 6 samples.

Results

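The 72 genes described here encode enzymes that build, branch, extend and cap the sugar chains of glycoproteins and glycolipids. They are all genes of the count files whose symbol starts with Galnt, B3gnt, B4galt, B3galt, St3gal, St8sia, Fut, Mgat or Gcnt followed by a digit, 72 of 24015 listed. The rule uses the symbol and no measured value. The set has 16 Galnt, 9 B3gnt, 7 B4galt, 5 B3galt, 6 St3gal, 7 St8sia, 9 Fut, 8 Mgat and 5 Gcnt genes. It includes the symbols Fut4-ps1, a pseudogene, and St8sia3os, an antisense RNA, both without a count in any library. Of the 72, 46 had enough counts to be tested, 20 had some counts but too few, and 6 had none.

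The sequenced RNA came from leukaemia stem and progenitor cells, purified by sorting when MLL-AF9 acute myeloid leukaemia had fully developed. MLL-AF9 is a fusion of a histone methyltransferase with a partner of the transcription elongation machinery. Both groups descend from lin-cKit+ bone marrow progenitors of NIKERT2 mice, a cross of Rosa-loxp-STOP-loxp-NIK with Rosa-CreERT2. All 6 libraries therefore come from cells built with the loxp-STOP-loxp NIK transgene, the inducible Cre and the fusion. Whether the stop cassette was still in place was not tested in either group. Only the LSPCT group, 3 libraries, came from tamoxifen-treated mice. The LSPC group, 3 libraries, came from untreated mice. NIK is the kinase that starts the noncanonical NF-kB pathway. The sources used here do not give age, strain, tamoxifen dose and timing, or sort gates. No group received tamoxifen without the transgene, so what tamoxifen itself does cannot be told apart from what Cre or NIK does. Because the labels do not say whether replicates come from separate mice, the p-values capture only the spread of these libraries, which may be technical.

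Total counts ranged from 19999071 to 26773176 per library, so a gene without a count could still stand at up to 3 counts, or 0.111 to 0.15 CPM (counts scaled by library size), by counting error alone. The transgene's gene, Map3k14, stood at 24.2 to 28.8 CPM in the untreated and 129.9 to 190.6 CPM in the tamoxifen libraries. The progenitor markers Kit (117 to 194 CPM) and Cd34 (149.6 to 264 CPM) were present in every library. Listed red cell markers summed to at most 3.75 CPM in any library, B cell markers to 28.6 to 50.1 CPM, T and NK cell markers to 40.0 to 101 CPM, and stroma and endothelium markers to 114 to 232 CPM. Of these lists, 1 T and NK cell marker rose and 1 fell, and 2 stroma and endothelium markers rose and 1 fell. Basophil, eosinophil and mast cell markers summed to 40.6 to 46.1 CPM in 5 libraries and to 125 CPM in tamoxifen replicate 1. Of that 125 CPM, 66.5 CPM was Prg2, which did not pass (edgeR adjusted p = 0.403). Of 5 tested, 1 rose, Ccr3, at most 0.199 CPM untreated and 2.14 to 14.6 CPM with tamoxifen. In bulk RNA, fewer cells of a type and less RNA per cell cannot be told apart. In 2 libraries markers of mature myeloid cells stood apart. Untreated replicate 3 had 2099 CPM summed over 9 listed neutrophil markers, against 25.4 and 292 CPM in the other untreated and 189.9 to 516 CPM in the tamoxifen libraries; no neutrophil marker passed the test. Tamoxifen replicate 1 had 1743 CPM summed over 11 listed macrophage markers, against 958.5 and 984 CPM in the other tamoxifen and 290.6 to 387 CPM in the untreated libraries; 8 of 10 tested macrophage markers rose and none fell. Of 10 markers of leukaemia progenitors of granulocyte-macrophage type 4 fell and 1 rose. Their summed level was 7246 to 8958 CPM untreated and 2399 to 3539 CPM with tamoxifen. Most of the untreated sum came from the granule genes Mpo (mean 3683 CPM untreated, 186.6 CPM with tamoxifen) and Elane (2696 and 899.8 CPM). Fcgr3 and Flt3 were also lower with tamoxifen and Fcgr2b was higher. For Kit, Cd34, Hoxa9, Meis1 and Myb the groups overlapped. The part of these cell type markers in the results below was not tested. Leaving out untreated replicate 3 added no member to those that passed, and leaving out tamoxifen replicate 1 added Mgat1, Mgat4b, Fut7 and Fut2, described below.

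Sugar chains are made in the endoplasmic reticulum and Golgi by enzymes that each add 1 kind of sugar in 1 kind of linkage, so the set of enzymes a cell expresses shapes the chains it carries. Galnt enzymes start O-glycans on serine and threonine, Gcnt enzymes branch them, and Mgat enzymes branch N-glycans. B3gnt, B4galt and B3galt enzymes lengthen both kinds of chain and those of glycolipids, and St3gal, St8sia and Fut enzymes cap them with sialic acid or fucose. In blood cells such caps form the ligands of selectins, the adhesion receptors that let leukocytes and leukaemia cells attach to vessel walls.

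With tamoxifen, 5 of the 46 tested members rose and 12 fell. That is 37.0% called (10.9% rising and 26.1% falling), against 17.2% of all 12729 tested genes, 8.96% rising and 8.24% falling (edgeR quasi-likelihood test, Benjamini-Hochberg adjusted p under 0.05 over all genes, two-sided). The members that rose were St8sia1, B3gnt3, Fut4, Galnt12 and Galnt7, all by at least 2-fold. Those that fell were B3gnt5, B4galt4, St8sia4, Mgat5, B4galt6, B3galt5, Gcnt1, Fut8, Galnt6, St3gal4, Mgat2 and B3gnt2, the first 5 of them by at least 2-fold. The groups did not overlap for 24 tested members (52.2%, against 37.7% of all tested genes), which are the 17 called members and 7 others (B3gnt1, Galnt3, Galnt4, Galnt11, Mgat1, Mgat4a and Mgat4b). The median log2 fold change was -0.06 over the tested members and -0.003 over all tested genes, and 24 of the 46 members were lower. The summed level of the tested members was 2459 to 2502 CPM in the untreated and 2064 to 2147 CPM in the tamoxifen libraries. The 12 members that fell summed to 1091 to 1184 CPM and 592 to 697 CPM, the 5 that rose to 87.9 to 97.3 CPM and 175 to 282 CPM, and the 29 that did not pass to 1201 to 1274 CPM and 1192 to 1273 CPM. Among tested members the mean level of B4galt6 changed most, as it dropped by 139.7 CPM, and that of Fut4 gained most, 90.3 CPM.

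**Figure D1:**
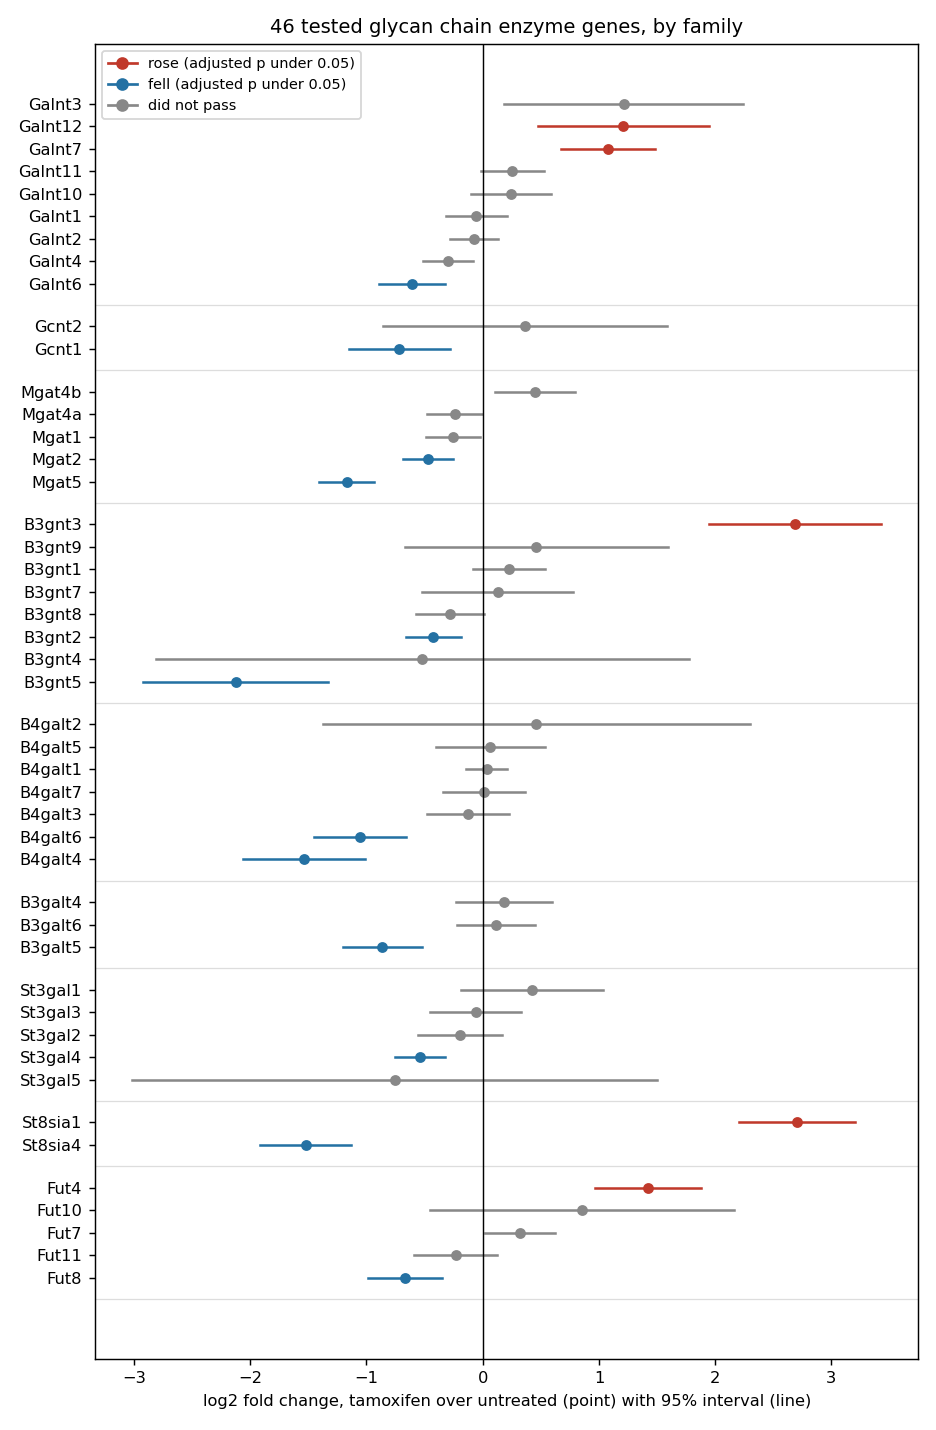
Log2 fold change of tamoxifen over untreated libraries for the 46 tested members (points) with its 95% interval from the edgeR fit (lines), grouped by family, 3 libraries per group. The 5 red genes rose and the 12 blue genes fell; each family with a called gene also holds uncalled ones, except St8sia, where both tested genes passed in opposite directions.

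O-glycan chains start with the Galnt family. Of its 9 tested genes, Galnt7 and Galnt12 rose and Galnt6 fell. Galnt7, which extends peptides that already carry a GalNAc, stood at 35.0, 31.1 and 35.5 CPM in the untreated and 52.0, 77.0 and 86.1 CPM in the tamoxifen libraries (log2 fold change 1.08, SE 0.18, edgeR adjusted p = 0.00504). Its lowest tamoxifen value, in replicate 1, was still above every untreated value. Galnt6, an initiating enzyme, went from 84.9, 87.1 and 73.5 CPM to 62.5, 49.9 and 48.9 CPM (log2 -0.61, SE 0.12, edgeR adjusted p = 0.0129). This call was lost without untreated replicate 1 or 2 (adjusted p = 0.0624 and 0.0505). Galnt12, another initiating enzyme, had a low level, 1.74, 1.95 and 2.19 CPM untreated and 5.60, 2.97 and 5.09 CPM with tamoxifen (log2 1.21, SE 0.32, edgeR adjusted p = 0.0356). It missed the threshold without untreated replicate 1, 2 or 3 (adjusted p = 0.136, 0.108 and 0.0762) or tamoxifen replicate 3 (0.106), and just passed without tamoxifen replicate 1 (0.0463).

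Galnt3 had the same estimate as Galnt12 but a wider spread. It measured 2.19, 3.65 and 2.38 CPM untreated and 10.9, 3.67 and 4.51 CPM with tamoxifen, so that replicate 1, the library with the high macrophage markers, stood far above the others. The log2 fold change of 1.21 (95% interval 0.18 to 2.24) did not pass (edgeR adjusted p = 0.103), and it was 0.58 without tamoxifen replicate 1 (adjusted p = 0.21). DESeq2 called it (adjusted p = 0.0286). The part of the macrophage markers in this value was not tested. The widely expressed initiating enzymes Galnt1 and Galnt2 had the highest levels of the family per kb of exon, 33.5 ± 1.73 and 25.8 ± 0.748 CPM per kb untreated (SD, n = 3). Their log2 differences of -0.06 (95% interval -0.32 to 0.20) and -0.07 (-0.28 to 0.13) did not pass (edgeR adjusted p = 0.773 and 0.618). Galnt4 (log2 -0.30) and Galnt11 (0.25) had groups that did not overlap and did not pass (edgeR adjusted p = 0.0651 and 0.185), nor did Galnt10 (log2 0.24, adjusted p = 0.303; 0.38 and 0.0553 without tamoxifen replicate 1).

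Branching of O-glycans rests on the Gcnt family, of which 2 genes were tested. Gcnt1, the branching enzyme of mucin-type chains that carry selectin ligands in myeloid cells, fell from 28.8, 36.4 and 26.6 CPM to 14.5, 18.5 and 22.8 CPM (log2 -0.72, SE 0.19, edgeR adjusted p = 0.0352). The highest tamoxifen value lay below the lowest untreated value by a small margin. The call was lost without untreated replicate 1 or 2 (adjusted p = 0.0938 and 0.121) or tamoxifen replicate 2 (0.0925). Gcnt2, which branches lactosamine chains into the I antigen, measured 3.43, 3.86 and 12.4 CPM untreated and 4.55, 10.5 and 10.4 CPM with tamoxifen. Untreated replicate 3, the library with the high neutrophil markers, reached above every tamoxifen value. Its log2 difference was 0.36 with that library and 1.22 without it, and neither passed (edgeR adjusted p = 0.689 and 0.094).

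N-glycans are branched by the Mgat family. Of its 5 tested genes 2 fell, none rose, 4 had negative estimates, and in all 5 the groups did not overlap. Over all tested genes 8.24% fell and 37.7% had groups that did not overlap. Mgat5, which adds the branch that galectins bind best and that is known for its rise in many carcinomas, fell from 116.5, 119.7 and 103 CPM to 45.6, 51.7 and 53.5 CPM (log2 -1.17, SE 0.10, edgeR adjusted p = 0.000258). The change was 2.25-fold, with little spread in either group. Mgat2, which opens the other arm needed for complex chains, fell from 185, 176 and 167 CPM to 117, 124.5 and 139 CPM (log2 -0.47, SE 0.09, edgeR adjusted p = 0.0116). Its call was lost without untreated replicate 1 (adjusted p = 0.0677). Mgat2 was the member with the highest level per kb of exon in untreated cells, 67.4 ± 3.37 CPM per kb, and 48.5 ± 4.14 CPM per kb with tamoxifen (SD, n = 3).

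The other Mgat genes did not pass. Mgat1, the first branching step, on which all later ones depend, had a log2 difference of -0.26 (95% interval -0.49 to -0.03, edgeR adjusted p = 0.121). Mgat4a had -0.24 (adjusted p = 0.152), and Mgat4b, which adds the same branch as Mgat4a, had 0.45 (0.11 to 0.79, adjusted p = 0.0748). Without tamoxifen replicate 1, Mgat1 passed as lower (adjusted p = 0.047) and Mgat4b as higher (0.0275), and DESeq2 also called Mgat4b (0.0352). Summed per kb of exon, the 5 genes stood at 132, 122 and 121 CPM per kb in the untreated libraries and at 95.8, 103 and 100.2 CPM per kb in the tamoxifen libraries.

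Chain extension by N-acetylglucosamine is the task of the B3gnt family, where 1 of 8 tested genes rose and 2 fell. B3gnt3, which extends unbranched O-glycans and takes part in making ligands of L-selectin, rose from 1.04, 1.10 and 1.15 CPM to 4.80, 9.52 and 6.99 CPM (log2 2.69, SE 0.32, edgeR adjusted p = 0.00123). It was close to silent without tamoxifen, at 0.36 ± 0.0175 CPM per kb of exon (SD, n = 3). B3gnt5, which makes the precursor of lacto- and neolacto-series glycolipids, fell from 32.0, 36.3 and 31.0 CPM to 12.0, 3.90 and 6.86 CPM (log2 -2.12, SE 0.35, edgeR adjusted p = 0.00506). Tamoxifen replicate 1 was the library nearest to the untreated ones; without it the log2 fold change was -2.61. B3gnt2, the main enzyme of polylactosamine chains, fell from 138, 151 and 136 CPM to 116, 93.3 and 108 CPM (log2 -0.42, SE 0.10, edgeR adjusted p = 0.027). That call was lost without any 1 library other than tamoxifen replicate 1 (adjusted p = 0.0916, 0.097 and 0.0635 without untreated replicates 1 to 3, 0.0694 and 0.0705 without tamoxifen replicates 2 and 3). In GENCODE M21, 2759 exon bases of other genes overlap the 4180 of B3gnt2, so its counts may not be its own alone.

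B3gnt3 stayed far below B3gnt2 even after its rise. Per kb of exon, B3gnt2 stood at 33.9 ± 1.99 untreated and 25.3 ± 2.72 CPM per kb with tamoxifen, against 2.32 ± 0.773 CPM per kb for B3gnt3 with tamoxifen (SD, n = 3). B3gnt8, which forms a partner complex with B3gnt2, had a log2 difference of -0.29 (95% interval -0.58 to 0.01, edgeR adjusted p = 0.167). The symbol B3gnt1 is listed by RefSeq as an older name of both B3gnt2 and B4gat1; B3gnt2 has its own row, and the gene meant was not settled. The B3gnt1 row differed by 0.23 on the log2 scale and missed the threshold (edgeR adjusted p = 0.288). So did B3gnt4, B3gnt7 and B3gnt9, which stood below 3 CPM in every library.

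Galactose is added by the B4galt and B3galt families. Here 3 of 10 tested genes fell and none rose. B4galt6, which makes lactosylceramide, the common precursor of gangliosides and other glycolipids, fell from 275, 266 and 267 CPM to 167, 123 and 98.9 CPM (log2 -1.06, SE 0.17, edgeR adjusted p = 0.00499). The 3 untreated values lay close together, and the tamoxifen values spread from replicate 1, the highest, to replicate 3. B4galt5, the other lactosylceramide synthase gene, measured 38.2, 38.3 and 57.5 CPM untreated and 36.2, 55.9 and 48.3 CPM with tamoxifen (log2 0.07, 95% interval -0.40 to 0.53, edgeR adjusted p = 0.86). Untreated replicate 3 was the highest of its untreated libraries, and without it the log2 difference was 0.30 (adjusted p = 0.335). Summed per kb of exon, both synthases stood at 56.3, 54.7 and 59.3 CPM per kb untreated and 37.1, 34.1 and 28.3 CPM per kb with tamoxifen, groups that did not overlap. B4galt4, which acts on sulfated lactosamine chains, fell from 17.4, 11.4 and 16.8 CPM to 5.15, 4.41 and 6.11 CPM (log2 -1.54, SE 0.23, edgeR adjusted p = 0.00342). B4galt1, the main galactosyltransferase of N-glycans, had the highest level of the family per kb of exon (53.1 ± 1.49 and 54.3 ± 2.49 CPM per kb, SD, n = 3) and a log2 difference of 0.03 (95% interval -0.14 to 0.21, edgeR adjusted p = 0.809).

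B3galt5, which puts galactose on the ends of lacto-series chains, fell from 24.2, 22.4 and 21.1 CPM to 14.2, 12.3 and 10.7 CPM (log2 -0.86, SE 0.15, edgeR adjusted p = 0.00641). B3galt4, a ganglioside synthase gene, and B3galt6, which builds the linker of glycosaminoglycans, did not pass (log2 0.19 and 0.12, edgeR adjusted p = 0.529 and 0.635). B4galt7, which works on the same linker, had a log2 difference of 0.01 (95% interval -0.34 to 0.37, edgeR adjusted p = 0.973). B4galt3 and B4galt2 did not pass either (log2 -0.13 and 0.46, edgeR adjusted p = 0.625 and 0.738). B4galt3 was at -0.31 without tamoxifen replicate 1 (adjusted p = 0.0538), and B4galt2 at 1.29 without untreated replicate 3 (0.412).

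**Figure D2:**
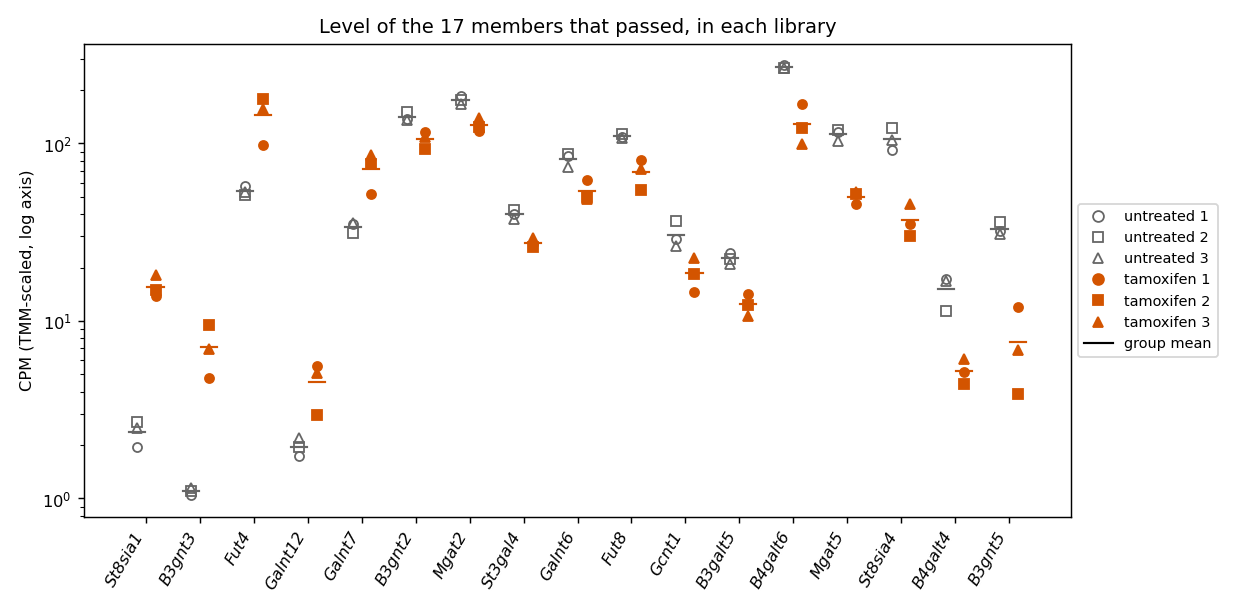
TMM-scaled CPM on a log axis for the 17 called members in each library, ordered from the largest rise to the largest fall; open grey symbols are untreated, filled orange symbols tamoxifen libraries, symbol shape gives the replicate and short lines are group means. The groups do not overlap for any of the 17, and tamoxifen replicate 1 (filled circles) often lies nearest to the untreated values, as for Fut4 at 98.5 CPM.

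Sialic acid chains are lengthened by the St8sia family, whose enzymes add sialic acid to sialic acid. Of its 7 genes 2 were tested, and they moved in opposite directions. St8sia1, the synthase of the ganglioside GD3, rose from 1.94, 2.71 and 2.49 CPM to 13.8, 14.9 and 18.1 CPM (log2 2.71, SE 0.22, edgeR adjusted p = 0.000168). St8sia4, a polysialic acid synthase, fell from 91.8, 122 and 104 CPM to 35.3, 30.0 and 45.5 CPM (log2 -1.52, SE 0.17, edgeR adjusted p = 0.000877). Per kb of exon the levels of both came from 0.255 ± 0.043 and 5.28 ± 0.765 CPM per kb untreated to 1.67 ± 0.238 and 1.84 ± 0.39 CPM per kb with tamoxifen (SD, n = 3). The other polysialic acid synthase gene, St8sia2, had 2 counts over the untreated and 4 over the tamoxifen libraries.

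In the St3gal family 1 of 5 tested genes fell and none rose. St3gal4, which caps lactosamine chains and contributes to selectin ligands of leukocytes, fell from 40.2, 42.3 and 37.7 CPM to 27.3, 26.0 and 29.2 CPM (log2 -0.54, SE 0.09, edgeR adjusted p = 0.00681). It also had the highest level of the family per kb of exon, 13.7 ± 0.79 CPM per kb untreated (SD, n = 3). St3gal5, the synthase of the ganglioside GM3 on which St8sia1 acts, measured 0.994, 0.551 and 12.0 CPM untreated and 1.70, 3.11 and 3.23 CPM with tamoxifen. A single library, untreated replicate 3, held most of its untreated signal, and this is the library with the high neutrophil markers; their part in it was not tested. The log2 difference was -0.76 with that library (SE 0.98, edgeR adjusted p = 0.649) and 1.80 without it (adjusted p = 0.0646), so its sign turned on 1 sample and neither value passed. St3gal1 (log2 0.43), St3gal2 (-0.20) and St3gal3 (-0.06) did not pass (edgeR adjusted p = 0.317, 0.444 and 0.842). St3gal1 was highest among untreated libraries in replicate 3, at 47.1 CPM against 32.0 and 24.2 CPM, and without that library its log2 difference was 0.73 (adjusted p = 0.0901).

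**Figure D3:**
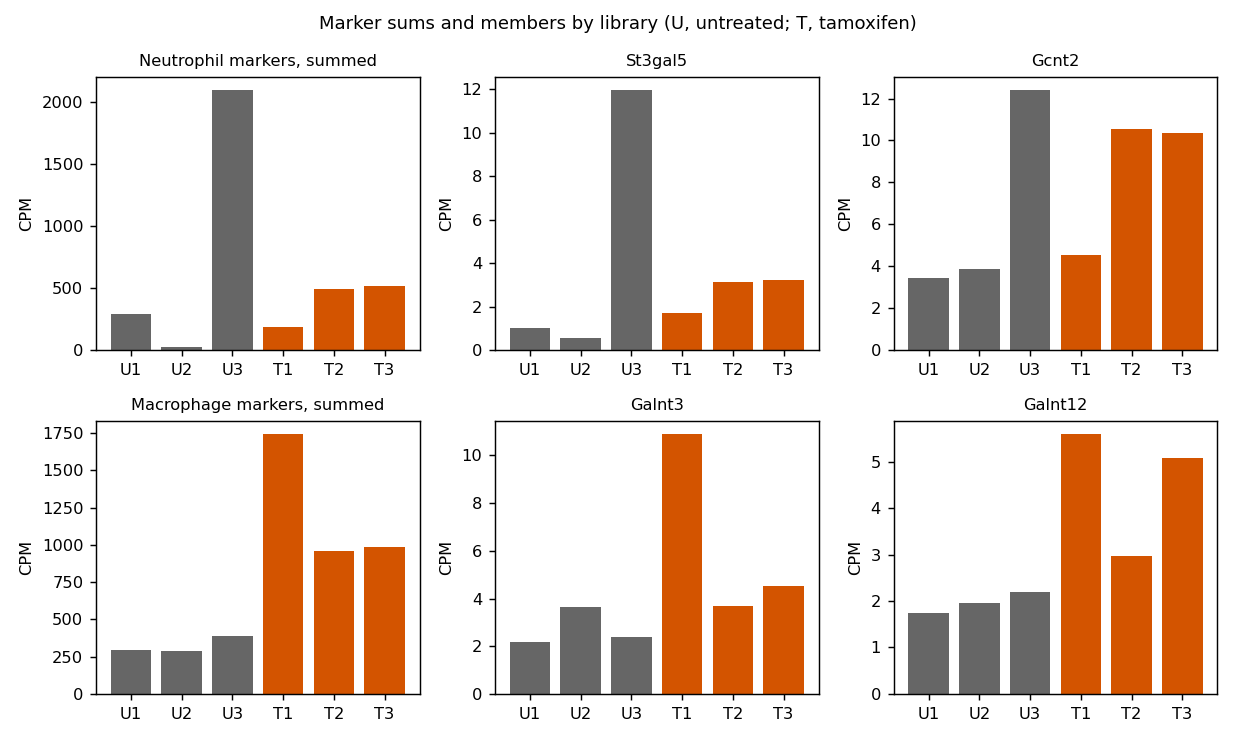
Bars give CPM from 0 in the untreated (U1 to U3, grey) and tamoxifen libraries (T1 to T3, orange) for summed neutrophil and macrophage markers and for 4 members. U3 stands out for neutrophil markers (2099 CPM) and St3gal5 (12.0 CPM), and T1 for macrophage markers (1743 CPM) and Galnt3 (10.9 CPM), whereas Gcnt2 and Galnt12 are high in further libraries too.

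Fucose genes moved both ways. Of 5 tested Fut genes, Fut4 rose and Fut8 fell. Fut4, which makes the Lewis x antigen of myeloid cells (CD15) and, with Fut7, selectin ligands, rose from 57.5, 51.0 and 53.0 CPM to 98.5, 178 and 156 CPM (log2 1.42, SE 0.20, edgeR adjusted p = 0.00253). Without tamoxifen replicate 1 its log2 fold change was 1.64. Fut8, which adds the core fucose of N-glycans, fell from 109.5, 113 and 107 CPM to 81.0, 54.9 and 71.5 CPM (log2 -0.67, SE 0.14, edgeR adjusted p = 0.0141). It missed the threshold without untreated replicate 1 or 2 (adjusted p = 0.0596 and 0.0505). Fut7 measured 41.4, 37.1 and 38.9 CPM untreated and 39.4, 54.8 and 52.3 CPM with tamoxifen, groups that overlap through tamoxifen replicate 1. Its log2 difference of 0.32 (95% interval 0.02 to 0.62) did not pass (edgeR adjusted p = 0.132) and passed without that library (0.46, adjusted p = 0.00581). Fut10 and Fut11, the other tested genes of the family, did not pass (log2 0.85 and -0.23, edgeR adjusted p = 0.35 and 0.345). Without untreated replicate 3 the log2 difference of Fut10 was 0.44 (adjusted p = 0.652). Summed per kb of exon, Fut4 and Fut7 stood at 31.7, 28.3 and 29.5 CPM per kb untreated and 40.9, 67.0 and 60.5 CPM per kb with tamoxifen. Per kb, Fut4 was below Fut7 in untreated cells (13.2 ± 0.825 against 16.6 ± 0.911) and above it with tamoxifen (35.4 ± 10.1 against 20.7 ± 3.51 CPM per kb, SD, n = 3).

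Promoter sequence was set beside these changes because NIK acts through NF-kB and the called members moved both ways. RefSeq promoter windows on GRCm38.p6 ran from 250 bases before to 50 after a start site. Windows of 1 chromosome were left out of the search. The windows searched matched 15 of the 17 called members, in 23 windows. B4galt6 and Galnt12 had none among them, which need not mean that RefSeq lists none. A kappa-B sequence (GGG, any 2 bases, TTTCC, searched on both strands) was found in the window of Fut4. No other member with a window searched had it (1 of 75 windows, against 1.63% of all 32851 windows searched). The match, GGAAACGCCC, is on the reverse strand of the motif and starts 32 bases before the Fut4 start site. A MEF2 sequence (CTA, any 4 bases, TAG) was in 1 of 4 Fut8 windows (3.69% of all windows), and the PU.1 sequence GAGGAAGT in 1 of 3 Gcnt1 windows (3.2% of all windows). The Fut8 match lay in the window that starts at chr12:77409891, whose GC share was 37.7%. A stretch around it recurs with few changes, but without the match, in the Fut8 window that starts at chr12:77388614. Over all member windows, MEF2 matched 5 of 75 (also Galnt10, Mgat4c, St3gal6 and St8sia2) and PU.1 matched 2 of 75 (also St3gal3). These matches lie in different windows and so do not overlap. A match describes the letters only, and a window without one says nothing of the factor. The Fut4 window is shown for its match, in capitals, and those of St8sia1 and St8sia4, which moved in opposite directions, because neither held any of these motifs. They lie at chr9:14752073-14752372, chr6:142964403-142964702 and chr1:95667545-95667844, all on the minus strand and written 5′ to 3′ along the gene.
Fut4: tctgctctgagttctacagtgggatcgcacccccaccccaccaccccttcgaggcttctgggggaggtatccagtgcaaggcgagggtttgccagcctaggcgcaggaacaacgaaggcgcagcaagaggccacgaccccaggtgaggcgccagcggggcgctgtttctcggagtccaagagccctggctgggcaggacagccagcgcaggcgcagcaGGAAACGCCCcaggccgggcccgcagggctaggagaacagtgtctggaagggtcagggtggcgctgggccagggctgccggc
St8sia1: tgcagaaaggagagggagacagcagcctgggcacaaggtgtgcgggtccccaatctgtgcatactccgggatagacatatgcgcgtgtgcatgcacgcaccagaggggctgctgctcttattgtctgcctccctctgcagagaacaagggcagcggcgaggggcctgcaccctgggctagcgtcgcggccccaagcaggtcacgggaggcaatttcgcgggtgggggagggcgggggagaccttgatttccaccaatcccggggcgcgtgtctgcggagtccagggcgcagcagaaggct
St8sia4: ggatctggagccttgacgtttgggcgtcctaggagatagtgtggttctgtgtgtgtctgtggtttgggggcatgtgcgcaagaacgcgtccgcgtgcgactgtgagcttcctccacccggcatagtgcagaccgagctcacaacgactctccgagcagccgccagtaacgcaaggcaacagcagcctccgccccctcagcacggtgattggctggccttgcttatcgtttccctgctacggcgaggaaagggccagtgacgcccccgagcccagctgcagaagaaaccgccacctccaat

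The 26 members that were not tested include 9 with at least 10 counts in a library. Fut2, which makes H antigens in epithelia, had 1, 0 and 1 counts untreated and 4, 29 and 11 with tamoxifen (ratio 24.2, 95% counting interval 6.32 to 206). Without the count filter it passed (edgeR adjusted p = 0.0263), as it did with DESeq2 (0.014) and without tamoxifen replicate 1 (0.00737), but not without an untreated library (0.0751 to 0.0907). Galnt9 had 12, 2 and 102 counts untreated and 5, 8 and 7 with tamoxifen, so that untreated replicate 3 held most of them. St3gal6 had 1, 1 and 22 counts untreated and 0, 8 and 14 with tamoxifen. In the same library as those 102 and 22 counts, Gcnt4 had 19, against 3 and 6 in the other untreated and 4, 5 and 9 in the tamoxifen libraries. B3galt2, Galnt13, Gcnt7, B3gnt6 and Galnt18 had 0 to 23 counts per library. Fut9 had 0 counts untreated and 6, 0 and 4 with tamoxifen. The 6 members without a count were Mgat4c, Galnt15, Fut4-ps1, St8sia3os, B3galt1 and Fut1.

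**Figure D4:**
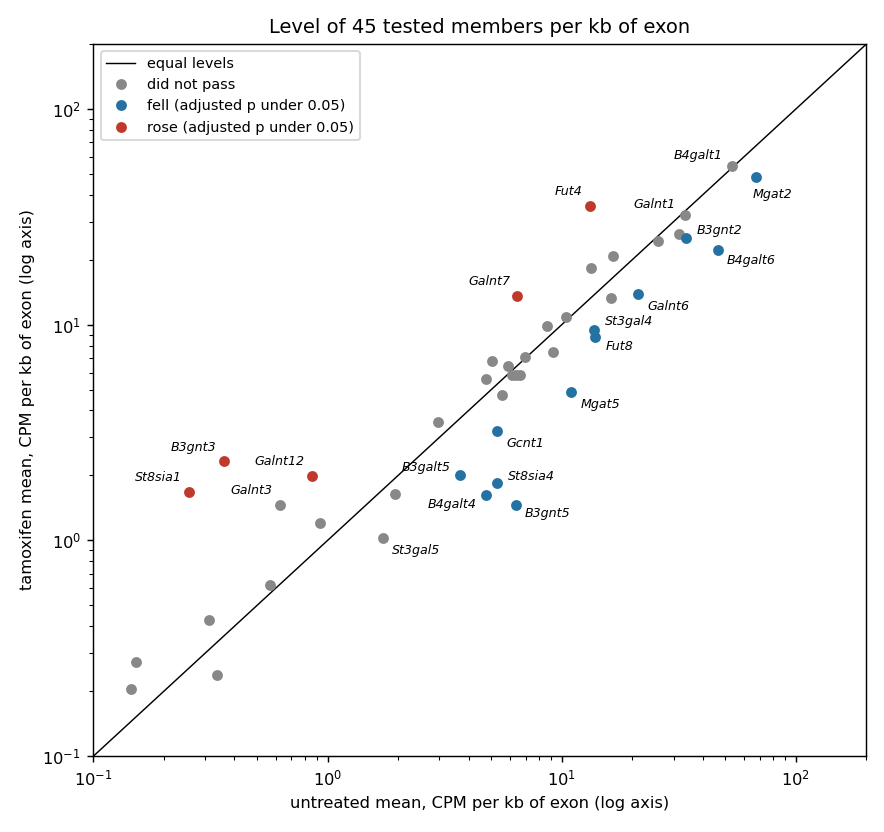
Mean level with tamoxifen against mean level untreated for 45 tested members, in CPM per kb of exon on log axes, 3 libraries per mean; the line marks equal levels. Fut4 moved from 13.2 to 35.4 CPM per kb, while St8sia1 and B3gnt3 rose from below 0.4 CPM per kb, and B3gnt5, B4galt4 and St8sia4 lie furthest below the line.

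In untreated cells the highest per kb of exon were Mgat2, B4galt1, B4galt6, B3gnt2 and Galnt1, and with tamoxifen B4galt1, Mgat2, Fut4, Galnt1 and Mgat1. Fut4 moved from rank 14 to rank 3 of 45, B4galt6 from 3 to 8, Mgat5 from 15 to 26 and B3gnt5 from 23 to 37. Among the 17 called members, tamoxifen replicate 1 was the tamoxifen library nearest to the untreated mean for 10, replicate 2 for 1 and replicate 3 for 6; over all 2189 called genes the shares were 43.2%, 32.1% and 24.7%.

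Other genes of glycosylation were taken from lists of the pathway's steps. Over all tested genes 17.2% were called. For these lists the share was 6.67% for the precursor, 18.8% for trimming, 6.25% for sugar nucleotide supply and 21.4% for O-glycan cores and chain ends. Around the members, genes that assemble the N-glycan precursor and transfer it to protein gave 2 of 30 that rose, Dpm1 (log2 0.42) and Mpdu1 (0.34), and none that fell. In N-glycan trimming, 1 of 16 rose and 2 fell. Man1a, a Golgi mannosidase that acts before Mgat1, rose from 78.2, 92.1 and 85.4 CPM to 298, 286 and 325 CPM (log2 1.83, SE 0.10). Man2a2, a mannosidase that acts between Mgat1 and Mgat2, fell from 220.4, 207 and 201 CPM to 91.9, 102 and 90.9 CPM (log2 -1.14, SE 0.09). Man1b1 fell by 0.34 on the log2 scale. Sugar nucleotide supply gave 1 of 32 higher, the sialic acid synthesis gene Gne (log2 0.60), and 1 lower, Uap1 (-0.48). In the list of O-glycan cores and chain ends, none of 14 rose and 3 fell. B3gnt1, which is also a member, is among the 14. The 3 were C1galt1c1, the chaperone of core O-glycan synthesis (log2 -0.99), Pomt1 (-0.74) and Ggta1, which makes the alpha-Gal cap (-0.49). Some of these calls were lost when 1 library was left out. Man1b1 missed the threshold without any 1 library but tamoxifen replicate 1 (edgeR adjusted p = 0.079 to 0.156), and also with upper quartile factors (0.0761) and the stricter filter (0.0539). The call was likewise lost for Mpdu1 without untreated replicate 1, 2 or 3 or tamoxifen replicate 3 (0.053 to 0.106). Uap1 missed it without untreated replicate 1 or 3 or tamoxifen replicate 3 (0.0602 to 0.0936), and C1galt1c1 without untreated replicate 2 or 3 or tamoxifen replicate 2 (0.0604 to 0.0932).

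Carriers and receptors of these chains changed in part. Of 16 tested selectins, selectin ligands and galectins, 1 rose and 4 fell (31.2% called, against 17.2% of all tested genes). Cd24a, a heavily glycosylated ligand of P-selectin, fell from 189.8, 186 and 207 CPM to 75.6, 33.5 and 38.8 CPM (log2 -1.98, SE 0.28). Lgals1, a galectin gene, fell from 1255, 1107 and 1082 CPM to 804, 625 and 617 CPM (log2 -0.75, SE 0.12). Selplg, the main scaffold of selectin ligands on leukocytes, fell by 0.39 on the log2 scale, a call lost without untreated replicate 1, 2 or 3 or tamoxifen replicate 3 (edgeR adjusted p = 0.0532 to 0.0924). Sele, a selectin gene low in every library, lay at the threshold (log2 -1.37, edgeR adjusted p = 0.05 as rounded) and missed it in 13 of 14 alternatives (0.0433 to 0.179 over all 14). Lamp1, a polylactosamine carrier of lysosomes, rose (log2 0.40), a call lost without untreated replicate 1 (edgeR adjusted p = 0.0683). All calls of these lists are from the same edgeR fit, with adjusted p under 0.05 over all genes.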

How the data were processed

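RNA was measured in 6 mouse libraries, 3 untreated (LSPC) and 3 tamoxifen (LSPCT), grouped by the sample titles. The deposited files hold whole-number counts per gene symbol, not normalized. Per the submitters' processing notes, the tools were featureCounts, TopHat2 (version 2.1.0), DESeq2 and FastQC and the build mm9, without roles or order. The sources used here do not give the annotation, the strand setting or the handling of reads with several positions. If strand was not used, reads over exon bases that a gene shares with an antisense partner could be miscounted or dropped. In GENCODE M21 (GRCm38, not the build of the counts), 8 of the 17 called members share exon bases with another gene.

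Counts were scaled with TMM (factors 0.986 to 1.007) in edgeR 4.0.16 under R 4.3.3. The 12729 of 24015 genes that passed filterByExpr (minimum count 10) were tested with glmQLFit and glmQLFTest, group as the only term, adjusted over all genes with a threshold of 0.05. The SE was taken as the size of the log2 fold change divided by the root of its F statistic. The 95% intervals use the total degrees of freedom of the fit, the residual ones plus those gained by sharing information across genes. Total counts per library ranged from 19999071 to 26773176. CPM per kb divides by the merged exon length in GENCODE M21, found for 45 of 46 tested members. Alternatives were 3 other scalings, 2 other filters, DESeq2 1.42.0, voom in limma 3.58.1, the replicate number as a block, and leaving out each library.

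Every called member is given in each library. Of the others, those highest per kb in a family, those with separate groups and a log2 change of at least 1, and untested ones with 10 counts in a library are named by rule, and for each pathway list up to 3 called genes with the smallest p (Selplg and Sele were named after their values were seen). Further genes were named after their values were seen. Some items are not reported here. Members and lists were chosen with earlier results of these data known.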

Additional observations from a re-analysis of the deposited data

How the results depend on the processing

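The 17 called members had the same direction under all 14 alternatives, and 11 of them passed under every one: St8sia1, B3gnt3, Fut4, Galnt7, B3gnt5, B4galt4, St8sia4, Mgat5, B4galt6, B3galt5 and St3gal4. The other 6, Galnt12, B3gnt2, Gcnt1, Fut8, Galnt6 and Mgat2, were lost when 1 library or another was left out. All 17 passed with RLE, upper quartile or no scaling factors, with no filter, with a stricter filter (3 or more libraries over 1 CPM), with voom and with DESeq2. DESeq2 called 8 members as rising, against 5, adding Mgat4b, Galnt3 and Fut2. With the replicate number as a block, 4 members rose and 11 fell, Galnt12 and B3gnt2 being lost; over all genes 959 rose and 833 fell, against 1140 and 1049. The numbers share no stated source, and with correlations of 0.118, -0.115 and 0.106 for same-numbered libraries, not every library was most like its own number. Leaving out each library in turn gave 4 to 8 rising and 7 to 13 falling members, and 586 to 1657 rising and 443 to 1592 falling genes over all. Over all genes and for falling members, the lowest values came without untreated replicate 1 and the highest without tamoxifen replicate 1; the cause was not tested. Of the 29 uncalled tested members, 25 passed under no alternative. Among the other pathway genes named, Man1b1 (adjusted p = 0.0747), Mpdu1 (0.0528), Rfng (0.0626) and Sele (0.0698) missed the threshold with the replicate block. Depth limits the lowest members, as for B3gnt4, at most 0.975 CPM in any library, with an interval of -2.81 to 1.77 (log2). In GENCODE M21, B3gnt4 also shares 1326 of its 1423 exon bases with Diablo on the opposite strand.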

Other observations

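Glycan sulfation and glycan breakdown were not part of the families above. Of 12 tested sulfotransferase genes 2 rose and none fell (16.7% called, against 17.2% of all tested genes). Chst15, which sulfates chondroitin sulfate, went from 10.2, 8.77 and 16.4 CPM untreated to 32.4, 44.4 and 42.4 CPM with tamoxifen (log2 1.75, SE 0.24, edgeR, adjusted p under 0.05), and Chst11, another chondroitin sulfotransferase gene, rose by 0.42 (log2), a call lost without untreated replicate 1, 2 or 3 or tamoxifen replicate 2 (edgeR adjusted p = 0.0646 to 0.0773). Of 19 tested glycosphingolipid and lysosomal breakdown genes 2 rose and none fell (10.5% called). Gm2a, the activator protein of ganglioside breakdown, was among those that rose (log2 0.52, SE 0.09). Ugcg, which makes the glucosylceramide that B4galt5 and B4galt6 extend, measured 41.8, 46.3 and 49.4 CPM untreated and 39.7, 34.5 and 37.6 CPM with tamoxifen and did not pass (log2 -0.30). Of 9 genes of O-fucose, O-GlcNAc and Notch glycosylation, Poglut1 rose (log2 0.61) and Rfng fell (-0.49), so that 22.2% were called. The Rfng call was lost without untreated replicate 1, 2 or 3 or tamoxifen replicate 3 (edgeR adjusted p = 0.0756 to 0.165).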
